A study of Mus musculus with 4 samples.

Results

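The imprinted growth genes described here are H19, Igf2, Dlk1, Peg3, Mest, Plagl1, Grb10, Ndn, Peg10 and Zim1. They are 10 of the 27745 gene names on a whole mouse genome oligonucleotide microarray. Their probes were found by gene name among the features that are not controls, and the genes were chosen by the density and genotype values they gave on these same arrays. All of their density and genotype values below are therefore a description, and none of them was tested. Mouse embryonic fibroblasts (MEFs) of strain C57BL/6J carried the genotype label Lats2-/-, called KO, or Lats2+/+, called WT. The LATS2 kinase belongs to the Hippo pathway and holds back the coactivators YAP and TAZ in crowded cells. All cells grew in DMEM with inactivated fetal bovine serum and antibiotics. Low density RNA was taken after 48 hours, before confluence, and high density RNA after 3 to 5 days, so density and time in culture cannot be told apart. On each array the high and low density RNA of a genotype were hybridised together in Cy3 and Cy5, and the other array of that genotype had the dyes exchanged. The 4 arrays thus gave 1 replicate per genotype and density. The labels do not say how the Lats2 allele was made, how many embryos were pooled, or whether both arrays of a dye swap used 1 extract. Both WT arrays shared a slide and scan, whereas the KO arrays lay on separate slides, and slide cannot be told apart from genotype.

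Imprinted genes are expressed mainly from the allele inherited from 1 parent, a choice written as DNA methylation in the germ line and read at control regions that often govern several neighbouring genes. Many act on fetal growth. Paternally expressed members such as Igf2, Dlk1, Peg3, Mest and Plagl1 are known mostly as promoters of growth or of progenitor states, and maternally expressed members such as H19 and Grb10 mostly as restraints on it. Many of them are high in the embryo and low in most adult tissues, and embryonic fibroblasts are a common cell in which they are studied. The arrays read total RNA of both alleles, so no statement about imprinting itself can be made from them. In cultures, fewer cells of a type and less RNA per cell cannot be told apart either.

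Both H19 and Igf2 are hosts of microRNAs, as is Mest. Their mature sequences are shown because a transcript that moves on the array is here also the precursor of a small RNA, whose own level was not measured. By RefSeq coordinates (GRCm38.p6), miR-675 lies within H19 at chr7:142577078-142577133, miR-483 within Igf2 at chr7:142654932-142654989, and miR-335 within Mest at chr6:30741314-30741375. Capitals mark the seed, bases 2 to 8, and no pair of the 6 shares a seed.
mmu-miR-675-5p: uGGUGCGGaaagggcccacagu
mmu-miR-675-3p: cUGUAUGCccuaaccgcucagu
mmu-miR-483-5p: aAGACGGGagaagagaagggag
mmu-miR-483-3p: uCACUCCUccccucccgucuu
mmu-miR-335-5p: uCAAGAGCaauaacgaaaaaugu
mmu-miR-335-3p: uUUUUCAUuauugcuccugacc

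Promoter windows of 300 bases, 250 before and 50 after an annotated start, were given by RefSeq for 8 of the 10 genes, with 14 starts in all. H19 and Peg10 had none. They were searched for GGAATG on either strand, the core of the sites bound by the TEAD factors through which YAP and TAZ act. It was found in 5 of the 14 windows, all of Igf2, Peg3 or Zim1, against 14.7% of all 32851 windows. Igf2 held it at 3 of its 4 starts, with a pair of matches in the window of start 2 at 218 and 112 bases before the start, and single matches at 180 and 163 bases in the others. In Peg3 it lay 84 bases and in Zim1 16 bases before the start. A match is a run of letters, not a site shown to be bound, and which start was in use was not measured. The windows with a match are printed with it in capitals, beside that of Dlk1, which had none. Mest, which was lower in KO, also had none in its 3 windows.
Igf2, start 2, chr7:142661222-142661521, minus strand: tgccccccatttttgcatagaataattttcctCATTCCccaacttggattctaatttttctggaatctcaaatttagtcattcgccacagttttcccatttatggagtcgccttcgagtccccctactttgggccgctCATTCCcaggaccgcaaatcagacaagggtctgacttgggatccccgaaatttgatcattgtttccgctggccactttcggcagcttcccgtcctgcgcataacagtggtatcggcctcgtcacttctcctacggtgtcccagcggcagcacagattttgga
Igf2, start 3, chr7:142658755-142659054, minus strand: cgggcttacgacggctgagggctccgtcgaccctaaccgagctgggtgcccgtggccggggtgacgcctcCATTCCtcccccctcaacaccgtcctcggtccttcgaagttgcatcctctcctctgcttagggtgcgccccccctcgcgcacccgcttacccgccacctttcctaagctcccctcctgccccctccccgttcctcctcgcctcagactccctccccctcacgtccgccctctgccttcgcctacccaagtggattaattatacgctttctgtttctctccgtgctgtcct
Igf2, start 4, chr7:142657447-142657746, minus strand: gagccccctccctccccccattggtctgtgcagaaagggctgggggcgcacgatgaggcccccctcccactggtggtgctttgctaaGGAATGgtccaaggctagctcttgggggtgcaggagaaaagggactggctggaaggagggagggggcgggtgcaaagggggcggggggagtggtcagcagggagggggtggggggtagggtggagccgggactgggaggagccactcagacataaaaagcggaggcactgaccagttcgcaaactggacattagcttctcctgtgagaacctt
Peg3, chr7:6730370-6730669, minus strand: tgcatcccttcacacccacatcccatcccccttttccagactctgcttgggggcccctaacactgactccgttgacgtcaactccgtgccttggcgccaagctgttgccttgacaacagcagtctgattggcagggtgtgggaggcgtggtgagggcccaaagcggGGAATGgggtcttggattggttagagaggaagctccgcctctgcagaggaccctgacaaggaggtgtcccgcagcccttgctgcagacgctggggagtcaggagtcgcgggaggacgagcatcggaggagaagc
Zim1, chr7:6696383-6696682, minus strand: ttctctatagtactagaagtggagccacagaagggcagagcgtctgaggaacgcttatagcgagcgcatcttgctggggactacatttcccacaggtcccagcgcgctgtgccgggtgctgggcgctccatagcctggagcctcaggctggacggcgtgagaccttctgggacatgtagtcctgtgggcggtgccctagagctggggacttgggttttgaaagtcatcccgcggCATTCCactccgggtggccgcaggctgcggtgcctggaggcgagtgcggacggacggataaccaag
Dlk1, chr12:109452573-109452872, plus strand: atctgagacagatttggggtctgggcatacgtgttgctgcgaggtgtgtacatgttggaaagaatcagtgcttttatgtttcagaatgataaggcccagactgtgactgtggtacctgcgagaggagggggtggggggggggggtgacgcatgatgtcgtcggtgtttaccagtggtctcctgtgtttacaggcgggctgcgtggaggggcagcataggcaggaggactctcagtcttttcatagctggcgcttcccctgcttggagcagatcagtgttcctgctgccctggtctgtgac

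The probes of the Lats2 gene were read as a check of the labels, and 3 of 4 went against them by being higher in KO. Those 3 lie together at chr14:56644080-56645305 (build mm8), whereas the other, A_52_P425064, lies apart at chr14:56676512-56676571. Probe A_52_P315345 differed by 1.38 on the log2 scale at low and 1.49 at high density, whereas probe A_52_P425064 was lower by -0.63 and -1.26. KO and WT are therefore names of labels throughout. The study also blotted the protein in its MEFs, which was not analysed here, so the blot is no part of this check, and what transcript the allele leaves is not given in the labels. Each array held 43379 features for 41174 probes, of which 52.8% to 67.7% were well above background in a channel. All 11 fibroblast markers listed (Col1a1, Pdgfra, Vim and others) were above background in all 8 channels, with a summed log2 level of 18.76 to 19.19 on the WT and 18.79 to 20.02 on the KO arrays. Single markers differed more than this sum, with Pdgfra higher in KO by 4.46 and 3.10 at low and high density, and Fn1 at -1.30 and 1.33. Some markers of other cells moved with genotype. The 4 neural markers, of which Sox2 was above background in no channel and Nes made up most of the signal in WT, summed to 11.36 to 13.41 on the WT and 9.39 to 10.26 on the KO arrays. The 7 macrophage markers summed to 9.90 to 10.05 and 10.75 to 12.46, with Adgre1, Ptprc and Itgam above background in no channel. The brightest probe of Lyz2 was higher in KO by 4.75 at high density, but in WT it was not well above background at low density, nor was its other probe in any WT channel. Cd14 was lower in KO (-1.79 and -1.59), and Cd68 differed by -0.10 and -0.38. The 4 adipocyte markers, with Adipoq above background in no channel, summed to 10.26 to 10.35 in WT and 11.23 to 11.40 in KO at low density, and to 11.35 to 11.40 and 10.04 to 10.06 at high density. They went different ways, with Pparg at 2.10 and -0.19 between genotypes at low and high density. Fabp4 gave -2.05 and -4.51, the latter with KO not well above background, and Cebpa gave -0.24 and -0.60. The 4 cartilage markers, with Matn1 above background in no channel, summed to 12.75 to 12.99 on the WT arrays, and on the KO arrays to 10.63 to 10.95 at low and 12.56 to 13.08 at high density. For Col2a1 the probes disagreed. The brightest gave -3.22 and 0.12 between genotypes at low and high density, whereas A_52_P216436 gave -5.91 and -3.93. The 5 skeletal muscle markers, 3 of them above background in no channel, summed to 13.09 to 13.13 in WT and 12.99 to 13.08 in KO at low density and to 11.05 to 11.16 and 12.01 to 12.04 at high density. Acta1 made up most of this sum, at 13.07 in WT and 12.99 in KO at low density and 10.93 and 11.93 at high density. What part the cells of these markers had in the genotype differences below was not tested.

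A gene was represented by its brightest probe and called changed at a mean difference of 2-fold or more (log2 of 1) whose sign was shared by the arrays of a dye swap. On the WT arrays 6 of the 9 members measured rose with density and none fell, and their median log2 ratio was 1.61. Over all 14880 genes measured there 15.5% changed, 9.41% up and 6.09% down, with a median of 0.06. On the KO arrays 5 of 8 rose and none fell, with a median of 1.92, where 11% of 15442 genes changed, 7.15% up and 3.88% down. Between genotypes 1 member was higher and 4 were lower on the KO arrays at each density. These counts were out of 8 members at low and 9 at high density. The background was 15.7% at low density (7.32% higher, 8.36% lower) and 14.5% at high density (6.74% higher, 7.78% lower). Since the same contrasts chose the genes, nothing is read from these counts against the background. When arrays were median centred instead of loess normalized, the share of rises among all changed genes went from 60.7% to 47.1% on the WT and from 64.8% to 42.8% on the KO arrays. Without scaling between arrays the share of higher genes went from 46.7% to 69.1% at low and from 46.4% to 66.6% at high density, where the median of all genes stood at 0.27 instead of 0.03.

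**Figure D1:**
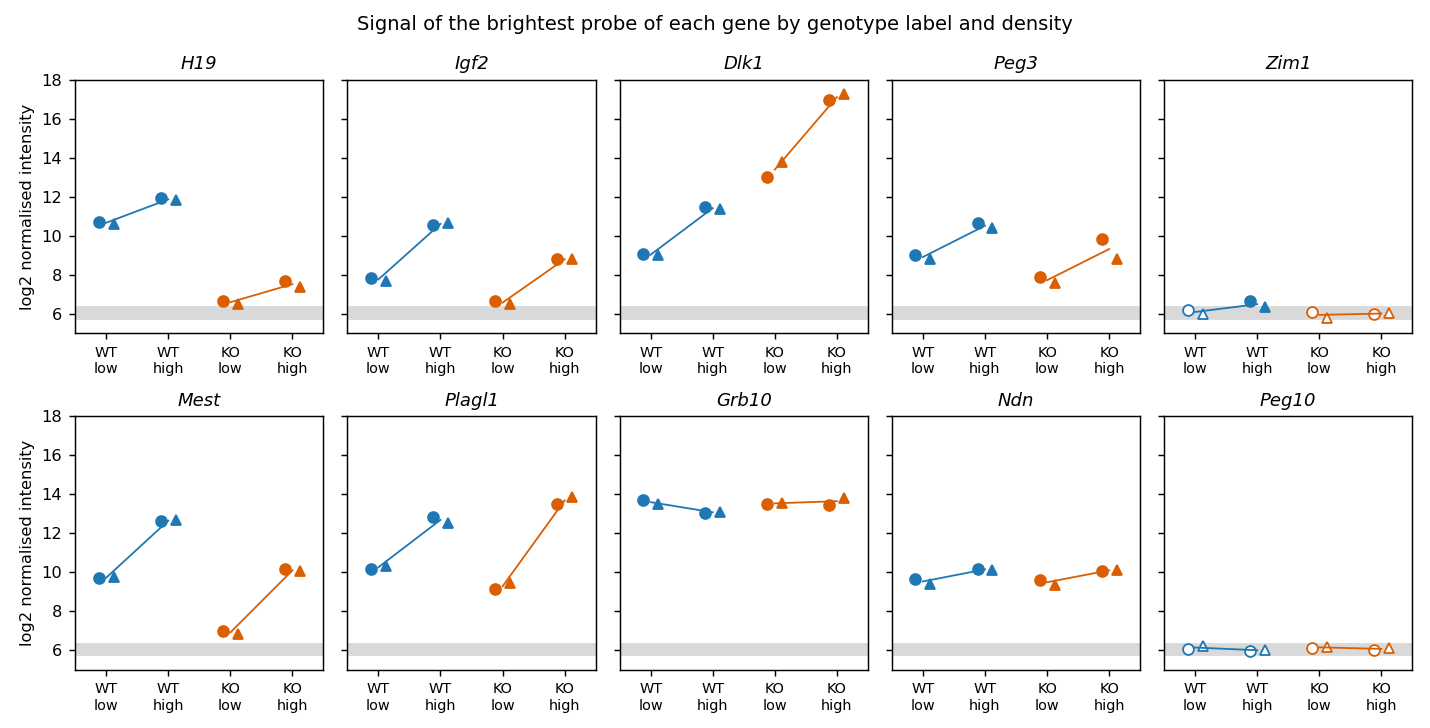
Log2 normalised intensity of the brightest probe of each of the 10 genes (vertical axis) by genotype label and density (horizontal axis). Circles and triangles are the arrays of a dye swap, lines join their means, open symbols were not well above background, and the grey band spans the lowest signals well above background in the 8 channels (5.74 to 6.32). Dlk1 is the only gene of the 10 that lies clearly higher on the KO arrays at both densities, while H19, Igf2, Peg3 and Mest lie lower, and the levels of different genes are not comparable.

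H19, a long noncoding RNA expressed from the maternal allele, was the most strongly reduced of the 10 genes on the KO arrays. Its brighter probe (A_51_P142196, chr7:142385254-142385313, build mm8) read 10.70 and 10.62 on the log2 scale in the WT low density channels and 11.91 and 11.81 at high density. The KO channels read 6.64 and 6.51 at low and 7.65 and 7.37 at high density. All KO channels lay well below all WT channels. The genotype difference was -4.08 at low density, a 16.9-fold lower level, and -4.35 at high density, a 20.4-fold lower one, with an SD between dyes of 0.0359 and 0.126 (n = 2 arrays of a dye swap). It placed H19 at rank 40 from the bottom of 15252 genes at low and at rank 51 of 15618 at high density. With density H19 rose in WT, by 1.21 and 1.19 on the 2 arrays. In KO the values were 1.0 and 0.86, a mean of 0.93, just short of 2-fold. The second probe, 0.293 kb away, gave -3.04 and -3.84 for genotype and 1.44 and 0.64 for density. In KO at low density that probe was not well above background on replicate 2. The KO signals were close to background, where the added offset shrinks a ratio. On the software's processed signal the genotype differences were -5.62 and -5.10 and the KO density effect was 1.77, a change by the size rule, while the WT effect fell to 0.99 under median centring.

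Igf2, the fetal growth factor whose gene lies beside H19 and shares its enhancers and control region, rose steeply with density in both genotypes and was lower on the KO arrays. Its probe A_51_P516826 (chr7:142460185-142460245) lies 74.9 kb from that of H19 and is printed at 10 places on the array. At low density it read 7.82 and 7.69 in WT and 6.65 and 6.48 in KO. At high density it read 10.54 and 10.67 in WT and 8.79 in both KO channels. Low and high density did not overlap in either genotype, nor did the genotypes at either density. The rise was 2.85 in WT, or 7.19-fold, and 2.23 in KO, or 4.68-fold. The repeated features within an array spread with an SD of 0.0561 to 0.11, which covers the spots of 1 array and not the cultures. Between genotypes Igf2 was lower by 2.28-fold at low density (log2 -1.19) and by 3.51-fold at high density (log2 -1.81). On the processed signal the KO rise was 3.53 and the difference at low density -2.29, but that difference was under 2-fold without scaling between arrays (-0.95) and as a mean over the probes of the gene (-0.90). The second probe, 0.414 kb away, was dimmer and gave rises of 1.88 and 1.01, with genotype values of -0.60 and -1.47. At low density its KO channels were not well above background, so the KO rise was at least 1.76-fold and the WT excess at low density at least 1.32-fold.

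H19 and Igf2 therefore both lay lower on the KO arrays, but by different amounts. H19 differed far more between genotypes than with density, and Igf2 more with density than between genotypes. Among 12941 genes compared over the centred mean levels of the 4 conditions, the genes nearest to H19 were Pde1a at a distance of 0.516 log2 units, Col5a3 at 0.672 and Pon3, itself an imprinted gene in some tissues, at 0.686. Those nearest to Igf2 were Nope at 0.24, Dpt at 0.349 and Anpep at 0.5. With 4 conditions many profiles lie close, and the nearness is a description.

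Dlk1, a transmembrane protein of the Notch ligand type that holds preadipocytes undifferentiated, moved the other way between genotypes. Probe A_51_P135618 (chr12:109908264-109908323) read 9.04 and 9.0 in WT at low density and 11.48 and 11.34 at high density. The KO channels read 12.99 and 13.80 at low and 16.97 and 17.25 at high density. Every KO channel was above every WT channel, the KO low density channels included. The difference was 4.38, or 20.8-fold, at low density and 5.70, or 51.9-fold, at high density, at rank 36 and rank 11 from the top of all genes measured. The rise of Dlk1 with density was 2.39 in WT and 3.72 in KO. A second probe, 0.239 kb away, gave a difference of 4.62 and 6.14 and rises of 1.74 and 3.27. The KO arrays spread more than the WT arrays here, with an SD of 0.377 against 0.0644 for the density effect. The genes nearest to Dlk1 in profile were Prss12 at 1.4, Omd at 1.45 and Pdgfrl at 1.56, all much farther off than the neighbours of H19 and Igf2.

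Peg3, a zinc finger protein expressed from the paternal allele and known in growth and maternal behaviour, rose with density to the same extent in both genotypes. Probe A_51_P206037 (chr7:6311815-6311874) read 8.99 and 8.81 in WT at low and 10.63 and 10.39 at high density. In KO it read 7.86 and 7.56 at low and 9.82 and 8.80 at high density. The rise was 1.61 in WT and 1.60 in KO, where the arrays gave 1.96 and 1.24. The gene was lower on the KO arrays by -1.19 at low and -1.20 at high density. The high density difference rested on replicate 2 of each genotype: it was -1.59 from those arrays and -0.81, under the size rule, from replicate 1. Without scaling between arrays both differences were under 2-fold, at -0.93 and -0.94. A second probe 1.67 kb away gave rises of 1.18 and 1.02 and differences of -1.29 and -1.45, and another, 14.5 kb away, was near background. Zim1, a zinc finger gene of the same domain whose probe lies 31.2 kb from that of Peg3, was well above background only in the WT channels at high density (6.63 and 6.33). It was at least 1.25-fold higher there than in WT at low density and at least 1.32-fold higher than in KO at high density. On the processed signal these values were 2.66 and -2.80, past 2-fold, but they are set against channels not well above background, so only the bounds are read.

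Mest, a paternally expressed gene for a hydrolase-like protein named for its expression in mesoderm and linked to fat cell enlargement, combined the steep rise of Igf2 with a genotype gap second to that of H19 among the lowered genes. Its only probe (A_51_P124535, chr6:30698289-30698348) read 9.70 and 9.75 in WT at low and 12.64 and 12.66 at high density. In KO it read 6.97 and 6.85 at low and 10.15 and 10.06 at high density. The arrays of a dye swap lay close together, with an SD of 0.0221 for the WT and 0.0222 for the KO density effect. Mest rose 7.6-fold in WT (log2 2.93) and 9.11-fold in KO (log2 3.19). The KO channels at high density were above the WT channels at low density, but below the WT channels at the same density. The difference was -2.81 at low density, or 7.02-fold lower, and -2.55 at high density, or 5.85-fold lower. The KO signal at low density was near background, and on the processed signal the KO rise was 4.13 and the low density difference -3.79.

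**Figure D2:**
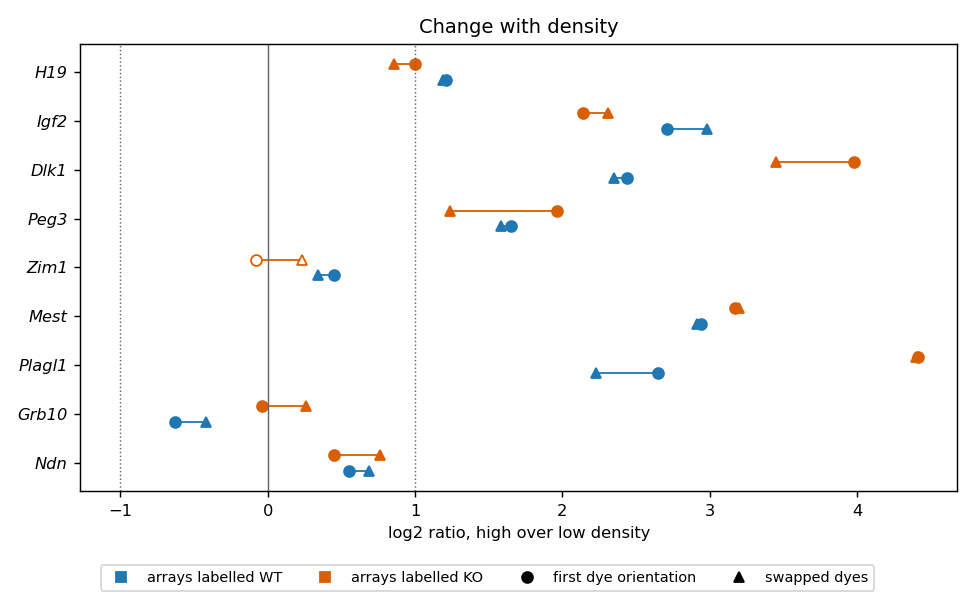
Log2 ratio of high over low density (horizontal axis) for 9 of the genes (vertical axis), in blue for the arrays labelled WT and in orange for those labelled KO. Circles and triangles are the arrays of a dye swap joined by a line, open symbols were not measured above background at either density, and dotted lines mark 2-fold. By brightest probe Plagl1 rises most in KO, by 4.41, and Grb10 and Ndn stay within the 2-fold lines.

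Plagl1, a zinc finger transcription factor that can arrest the cell cycle and is known to activate other imprinted genes including Igf2 and H19, had the largest rise of the 10 genes on the KO arrays by its brightest probe, though not as a mean over its probes (3.31, against 3.49 for Dlk1). Probe A_52_P532456 (chr10:12821672-12821731) read 10.19 and 10.32 in WT at low and 12.84 and 12.55 at high density. The KO channels read 9.12 and 9.45 at low and 13.53 and 13.85 at high density. KO was thus below WT at low density and above it at high density, without overlap at either. The rise was 2.44 in WT, or 5.42-fold, and 4.41 in KO, or 21.2-fold, at rank 10 from the top of 15442 genes. Neither genotype difference passed the size rule, with -0.97 at low density and 1.0, just under 2-fold before rounding, at high density. The second was 0.69 from replicate 1 of each genotype and 1.30 from replicate 2, and 1.25 without scaling between arrays. The other Plagl1 probe, 1.81 kb away, gave rises of 1.02 and 2.22, with -0.18 and 1.02 between genotypes.

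Grb10, an adaptor that dampens insulin and IGF receptor signalling, was bright and moved little. Probe A_52_P115787 (chr11:11830965-11831024) read 13.69 and 13.51 in WT at low, 13.06 and 13.10 in WT at high, 13.52 and 13.56 in KO at low and 13.48 and 13.81 in KO at high density. Its density effect was -0.52 in WT and 0.11 in KO, and its genotype difference -0.06 at low and 0.57 at high density. Of 3 probes, 1 passed the rule in 1 contrast: A_52_P40363, which lies 39.6 kb upstream of the first on the minus strand, was higher on the KO arrays at high density by 1.03. Ndn, a growth-restraining protein of the MAGE family from the region linked to Prader-Willi syndrome, differed little between genotypes. Its channels at low density read 9.64 and 9.41 in WT and 9.61 and 9.37 in KO. At high density they read 10.19 and 10.10 in WT and 10.06 and 10.13 in KO. The genotypes overlapped at both densities, with means of -0.04 and -0.05 between them, and its density ratio was 0.62 in WT and 0.61 in KO, under 2-fold. Peg10, a retrotransposon-derived gene needed in the placenta, was not well above background in any of the 8 channels, so no ratio is given.

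**Figure D3:**
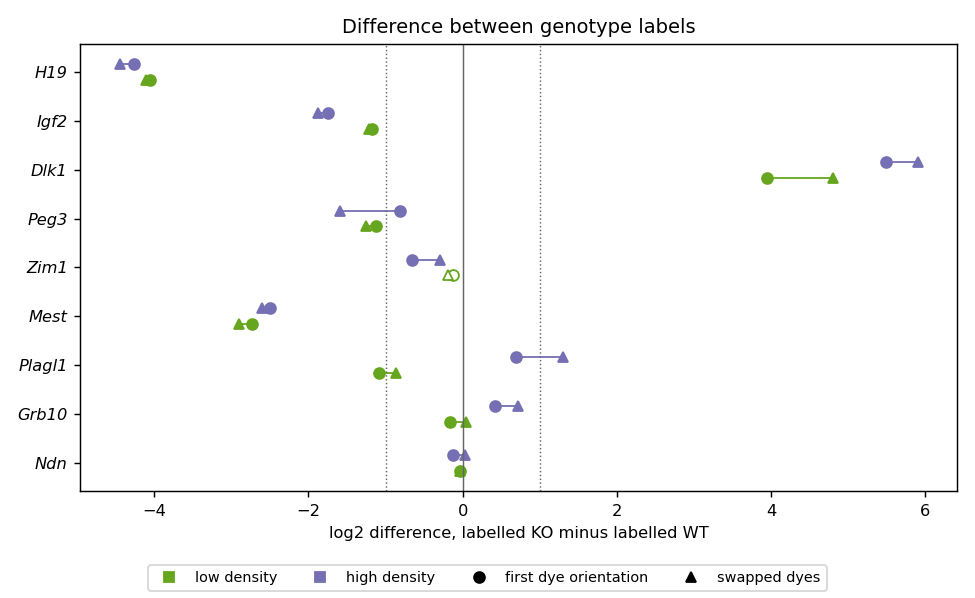
Log2 difference between the arrays labelled KO and WT (horizontal axis) for 9 of the genes (vertical axis), in green at low and in purple at high density. Circles and triangles are the comparisons within each dye, open symbols were not measured above background in either genotype, and dotted lines mark 2-fold. Dlk1 lies at 4.38 and 5.70, H19 at -4.08 and -4.35, and Plagl1 changes side between densities.

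The density effects of the genotypes were set against each other as KO minus WT within the same dye orientation. Of the 8 members measured in both, 2 had a larger rise in KO by at least 2-fold and none a smaller one, with a median of 0.12, where 9.54% of 14167 genes passed (4.56% above, 4.98% below). Plagl1 differed by 1.97, from 1.77 and 2.17, and Dlk1 by 1.32, from 1.54 and 1.1. For Dlk1 the difference was 0.81 under median centring. Peg3 at -0.01, Ndn at -0.02, Mest at 0.26 and H19 at -0.27 were within 2-fold of no difference, and so were Igf2 at -0.62 and Grb10 at 0.63. On the processed signal, which replaces both the background correction and the normalisation, H19 and Igf2 turned sign, to 0.53 and 0.24, and Mest passed the size rule at 1.1.

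Other imprinted genes were taken from a list of 65, of which 54 were on the array. It holds genes imprinted in most tissues together with some imprinted only in placenta or brain. On the WT arrays 9 of 36 measured rose and 2 fell with density (median 0.34), and on the KO arrays 7 of 38 rose and 1 fell (median 0.35). Between genotypes 2 of 37 were higher and 7 lower on the KO arrays at low density (median 0.09), and 3 of 39 were higher and 7 lower at high density (median -0.14). Over all genes 15.5%, 11%, 15.7% and 14.5% passed in these 4 contrasts in either direction, with medians of 0.06 for density and 0.03 for genotype, so most genes of the list, as of the array, differed by less than 2-fold.

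The neighbours of Dlk1 on chromosome 12 did not share its direction between genotypes. Meg3, Rian and Mirg, noncoding RNAs expressed from the maternal allele, and Dio3, a deiodinase expressed from the paternal allele, all gave negative differences where that of Dlk1 was positive. Rian differed by -2.95 at low and -2.89 at high density (-3.76 and -3.14 on the processed signal, where its KO rise was 2.46). Dio3 differed by -2.12 and -2.29, Meg3 by -1.61 and -0.93, and Mirg by -0.68 and -0.58, the last 3 of these values under 2-fold. The value of Mirg at high density was -0.07 from replicate 1 and -1.09 from replicate 2, so its size there rests on replicate 2. With density all 4 rose by the size rule, as Dlk1 did. Meg3 rose by 1.61 in WT and 2.30 in KO, Rian by 1.77 and 1.83, Dio3 by 1.35 and 1.17, and Mirg by 1.05 and 1.15. The KO rise of Mirg was 1.76 on replicate 1 and 0.54 on replicate 2, and that of Dio3 0.93 and 1.41, so each is under 2-fold on 1 of the arrays. The KO signal of Dio3 at low density was near background, and on the processed signal its difference there was -3.81 and its KO rise 2.46. A dimmer probe of Meg3 (A_52_P196568) and one of Rian (A_52_P102630) had these signs with density and between genotypes but stayed under 2-fold, and another of Meg3 (A_52_P99341) gave -2.07 at high density.

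Beside the Igf2 and H19 domain lies that of Cdkn1c, a maternally expressed inhibitor of cyclin-dependent kinases. It rose by 3.34 with density in WT, against 0.71 in KO (1.31 on the processed signal), and was lower in KO by -1.76 at low and -4.39 at high density. The low density difference was -1.01 from replicate 1 and -2.52 from replicate 2, and -2.69 on the processed signal. Slc22a18, a transporter gene of the same domain, rose by 2.62 in WT by its brightest probe. Its other probe, A_52_P640221, gave 0.24 there and -0.28 between genotypes at high density. In KO the brightest probe was above background on replicate 1 only, where it differed from WT by -1.33 and -3.80. Since these signals are near background and the probes disagree, the size is not settled. In the Peg3 domain Usp29, a ubiquitin protease gene, gave a difference of 1.19 at high density, opposite in sign to Peg3, but it was 0.50 from replicate 1 and 1.88 from replicate 2 of each genotype, so the call rests on replicate 2. The genes of the Ndn domain that were measured (Snrpn, Snurf, Mkrn3, Peg12, Ube3a) all stayed under 2-fold in every contrast, as Ndn did. Only the more distant Atp10a passed, with a fall of 1.03 in WT with density (-0.99 and -1.07 on the arrays). Cobl, beside Grb10, fell by 2.61 in KO with density, and its genotype value was 0.97 at low density, under 2-fold, and -1.08 at high density, of which replicate 1 gave -1.20 and replicate 2 -0.96.

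**Figure D4:**
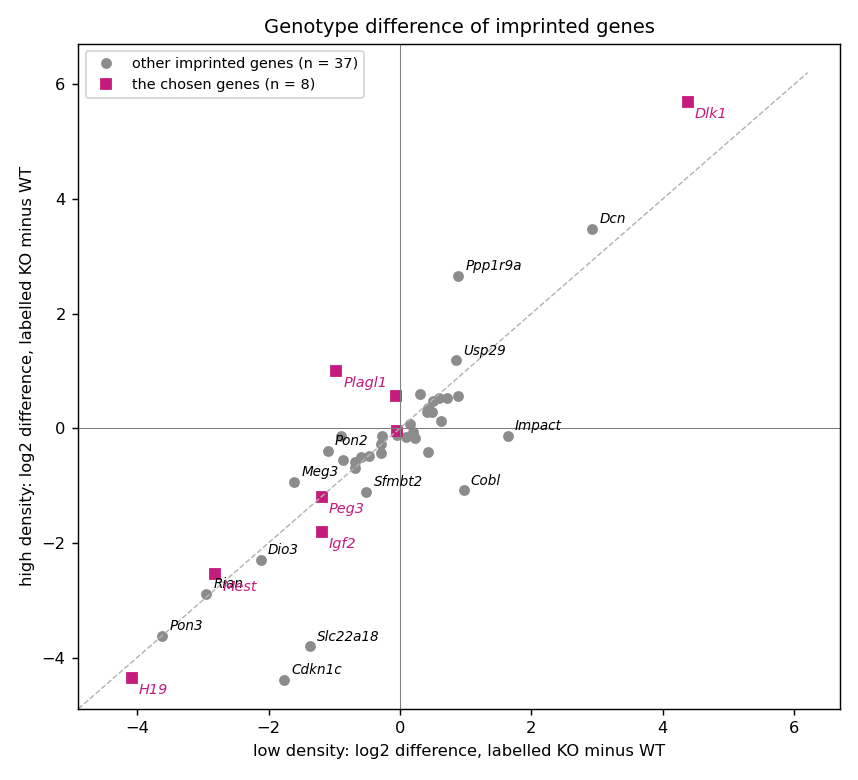
Log2 difference between the arrays labelled KO and WT at low density (horizontal axis) and at high density (vertical axis), for 37 other imprinted genes (grey) and 8 of the genes described here (magenta) measured in both. The dashed line marks equal differences. Dlk1 lies at the upper right, and H19, Mest and Igf2 lie at the lower left with Rian and Dio3, which are neighbours of Dlk1 in the genome.

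The rest of the list held a few large values. Dcn, a matrix proteoglycan imprinted only in placenta, rose by 5.57 in WT and 6.12 in KO, the latter 4.49 as a mean over its probes. It was higher in KO by 2.93 and 3.48, the first from 2.33 on replicate 1 and 3.53 on replicate 2. Pon3, a paraoxonase near Peg10, was lower in KO by -3.62 at both densities, and by -5.04 and -4.41 on the processed signal. Ppp1r9a, also near Peg10, rose by 2.47 in KO with density, against 0.70 in WT, and at high density was higher in KO by 2.66. On the processed signal WT gave 2.35 and KO 3.07, a difference of 0.72 that is under 2-fold. Impact, a regulator of translation, rose by 1.1 in WT (1.31 and 0.89 on the arrays) and gave -0.67 in KO, and was higher in KO by 1.64 at low density only.

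The IGF signalling genes give the setting in which Igf2, H19, Grb10 and Plagl1 are usually placed, from a list of 21 with 20 on the array. With density 7 of 17 measured rose and 1 fell on the WT arrays, and 3 of 18 rose and 1 fell on the KO arrays. Between genotypes 6 of 18 were higher and 2 lower on the KO arrays at low density, and 4 of 18 were higher and 4 lower at high density. The medians of the list were 0.52, 0.32, 0.43 and 0.41 in these 4 contrasts, where 15.5%, 11%, 15.7% and 14.5% of all genes passed in either direction. Igf1, the related ligand, rose like Igf2, by 4.27 in WT and 2.18 in KO. Its 3 probes differed in size, with 2.73 and 2.53 for A_52_P306327 and a mean over probes of 3.41 in WT. Unlike Igf2 it was higher on the KO arrays at low density, by 2.86 (2.09 as that mean), and differed by 0.77 at high density. Igf2r, the receptor that clears IGF2 and is itself imprinted, was under 2-fold throughout (0.78 and 0.60 with density, 0.71 and 0.53 between genotypes). Igf1r, which carries the growth signal, fell short of the rule as well, at -0.93 in WT and 0.01 in KO.

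The binding proteins that hold IGF ligands outside the cell gave the largest values of this list. In WT Igfbp5 rose by 6.38 (3.74 as a mean over its probes), whereas in KO the same gene fell by 1.36 (-0.86, under 2-fold, as that mean). Igfbp3 was below background in all WT channels and higher in KO by at least 19.9-fold at low and at least 246-fold at high density by its brightest probe. Its other probes gave at least 4.76-fold and at least 8.52-fold at high density, and at low density neither was well above background on both KO arrays. Igfbp2 was lower in KO by -2.30 and -2.28, and Igfbp4 rose by 1.77 in WT and 3.03 in KO. Among the intracellular genes, Irs1, the receptor substrate, was higher in KO by 2.10 and 1.57, and Grb14, an adaptor of the same family as Grb10, by 1.41 and 1.95. Akt2, a kinase of the pathway, rose by 1.42 in WT against 0.21 in KO and was lower in KO at high density by -1.53 (0.71 and -0.99 on its other probe). Igfbp7, a related binding protein, was the gene of the list that fell in WT, by 1.53.

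**Figure D5:**
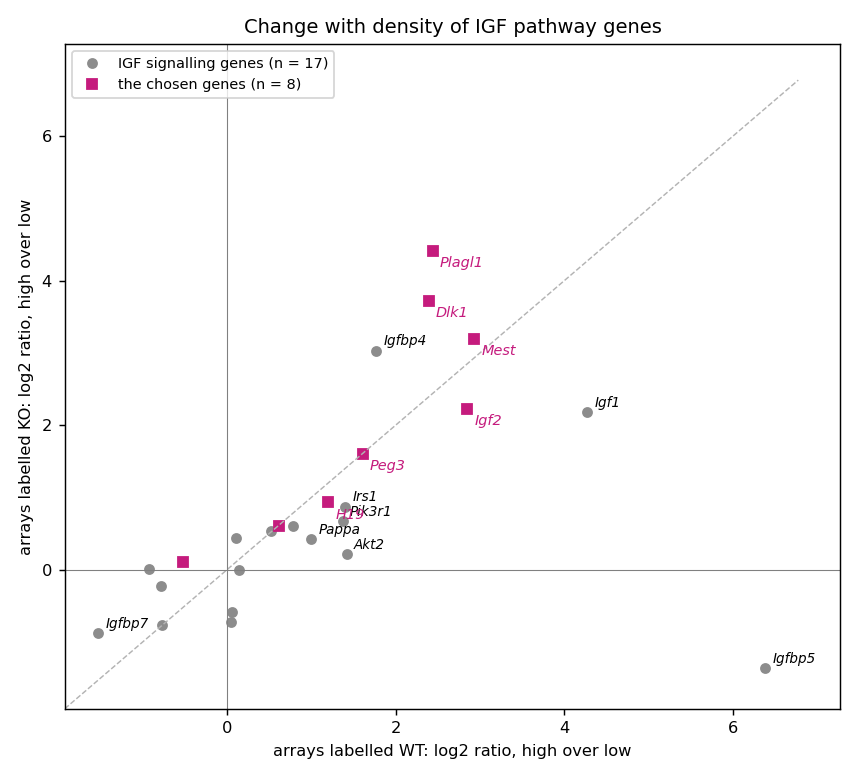
Log2 ratio of high over low density on the arrays labelled WT (horizontal axis) and KO (vertical axis) for 17 IGF signalling genes (grey) and 8 of the imprinted growth genes (magenta). The dashed line marks equal ratios. Igf1 and Igf2 rise in both genotypes, Dlk1 and Plagl1 lie above the line, and Igfbp5 lies far below it.

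Genes that maintain or write imprints were read from a list of 10, of which 8 were measured in each contrast. Dnmt1, the maintenance DNA methyltransferase, gave -1.25 with density in WT, a fall by the size rule, and -0.55 in KO, under it, and Uhrf1, which recruits it, gave -1.47 and -0.83 in the same way. Both were lower in KO at low density, by -1.40 and -1.17. Trim28, a corepressor at imprinted control regions, was at -1.02 there (-0.94 from replicate 1 and -1.10 from replicate 2). At high density Dnmt1, Uhrf1 and Trim28 gave -0.69, -0.52 and -0.38, all under 2-fold. The 3 probes of Dnmt3a, a de novo methyltransferase, disagreed. The brightest gave 1.19 and 1.22 with density and 1.12 and 1.16 between genotypes, A_52_P30497 gave 0.98, 0.75, 0.56 and 0.34, and A_52_P169048 gave -0.07, -0.05, 0.29 and 0.31. Ctcf, the insulator protein of the H19 control region, stayed under 2-fold in all contrasts, between -0.60 and 0.61. DNA methylation itself was not measured.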

How the data were processed

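RNA of MEFs labelled Lats2 KO or WT at low and high density was measured on 4 2-colour Agilent arrays. The authors extracted the images with Agilent Feature Extraction 10.5.1.1, and the deposited scanner files hold mean intensity and median background intensity per dye, a processed signal intensity and quality flags of 0 or 1. The deposited series matrix holds the software's log10 ratio of that processed signal, turned to high over low density, and was checked to equal it in 100% of values within 1%. Symbols and positions are those of the file headers (mm8).

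Background was corrected with normexp (offset 50), features with an outlier flag left out (107 to 224 per array), and arrays normalized by loess and Aquantile in limma 3.58.1 (R 4.3.3). Summaries used Python 3.11.15, numpy 2.4.6, pandas 2.3.3 and matplotlib 3.10.9. Spots of a probe were averaged. Probes entered a contrast when both arrays on 1 side or more were well above background, and genotypes were compared within dye. No array had a saturated feature. The number of arrays limits the precision. Over probes, the SD of an array around the mean of its pair was 0.0987 for the WT and 0.143 for the KO density ratio. It is no measure of the spread between replicates, and whether the arrays of a dye swap used 1 extract is not given. At least N-fold is the mean of the brighter group over that of the dimmer one, raised where needed to the lowest signal well above background in each channel.

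Each genotype and density has 1 replicate, which allows no test, and the t-test of the study's methods was not run. The members and all gene lists, the latter written from general knowledge, were chosen with earlier results of these data known. Other imprinted and IGF genes were named when changed, up to 6 per contrast by size. Mirg, Usp29, Atp10a, Igf2r, Igf1r, the imprint maintenance genes and the genes of the Ndn domain were named after their values were seen. The 3 genes nearest to H19, Igf2 and Dlk1 were ranked by Euclidean distance. The size rule was tested on simulated data. Alternatives covered background correction, normalization, scaling, filter, probe choice, threshold, flags, the series matrix and each array left out.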

Additional observations from a re-analysis of the deposited data

Results flagged for a closer look

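The density effect of Igfbp5 had opposite signs in the genotypes on all 4 arrays, positive in WT and negative in KO, and the KO effect minus the WT effect was -7.74. Impact did the same with a value of -1.77. With 1 replicate per genotype and density neither difference was tested.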

How the results depend on the processing

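With 1 array left out, the number of members changed was 6 for density in WT, 5 to 6 in KO, 5 to 6 between genotypes at low and 4 to 6 at high density, and 2 for the difference of the density effects. No member value that passed 2-fold turned its sign under any alternative that was run. The difference of the density effects passed for 2 members, for 1 under median centring and for 4 at 1.4-fold. The genotype difference at low density passed for 5 members, and for 3 without scaling between arrays. Among other imprinted genes the processed signal gave 13 changed for density in KO against 8, as did the series matrix (13), and 14 between genotypes at low density against 9. At 1.4-fold these genes numbered 21 and 26 for density in WT and KO, 24 and 21 between genotypes at low and high density, and 10 for the difference. At that threshold the IGF genes numbered 13 and 12 for density in WT and KO, 13 between genotypes at high density and 12 for the difference. Over all genes the counts of 2306, 1703, 2392, 2268 and 1351 (density in WT and KO, genotype at low and high density, difference) became 3952, 3217, 4197, 3953 and 2259 on the processed signal. At 1.4-fold they became 6114, 5673, 6495, 6154 and 4456. The series matrix gave 3947, 3211 and 2257 for density in WT, in KO and the difference. No paired analysis was possible because each genotype and density has 1 replicate. Signals near background limit the ratios of H19, Igf2, Mest, Zim1, Dio3, Pon3, Rian and Slc22a18 on the KO arrays, and normexp with an offset shrinks them.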
